A study of Mus musculus with 6 samples.

Results

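The nuclear genes of oxidative phosphorylation were followed across 6 deposited RNA-seq libraries of tumor-associated macrophages, the macrophages found inside a tumor. Members were chosen by name: symbols beginning Nduf, Uqcr, Atp5 or Cox4 to Cox8, together with Sdha, Sdhb, Sdhc, Sdhd, Cyc1 and Cycs, with at least 20 reads summed over the 4 count columns. Of 24391 gene rows, 94 carried such a name and 90 met the read minimum. All 90 passed the filter on low counts and were tested. The lowest member was Cox6b2, with 35 reads in all, and the highest gene left out was Cox8b, with 13. Cox7b2, Cox8c and Ndufs5 had 0 reads in the 4 columns. The members comprised 7 core subunits, 30 accessory subunits and 7 assembly factors of complex I, 4 genes of complex II, 9 of complex III, 15 of complex IV, 17 named for complex V, and cytochrome c.

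The cells came from colorectal tumors of BALB/C mice, either wild type (WT, CCL5+/+) or lacking the chemokine gene Ccl5 (CCL5-/-). Cells with high CD11b and low F4/80 at the surface (F4/80low) gave 2 WT and 2 CCL5-/- libraries, numbered 1 and 2 in each genotype and deposited as read counts. Cells with low CD11b and high F4/80 (F4/80hi) gave 1 library labelled WT and 1 labelled CCL5-/-, deposited as FPKM (fragments scaled to transcript length and sequencing depth). The labels give no age, and they do not say whether animals were pooled or whether replicates were separate mice, so each p-value reflects only how far these libraries spread, and that spread may be technical. The labels name no promoter, Cre driver or cell type for the deletion.

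Oxidative phosphorylation takes place in the inner mitochondrial membrane. Complexes I and II pass electrons from NADH and succinate to ubiquinone, complex III passes them on to cytochrome c, and complex IV gives them to oxygen. The proton gradient this builds drives complex V, the ATP synthase. Most subunits are encoded in the nucleus and a small core in mitochondrial DNA. Macrophages are known to change their use of this pathway with their state of activation. The mitochondrially encoded subunits are not analysed here.

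Several properties of the libraries bear on each value below. The targeted gene Ccl5 had 255 and 3976 reads in WT replicates 1 and 2, and 35 and 82 in CCL5-/- replicates 1 and 2. In the FPKM table Ccl5 stood at 15.7 for the F4/80hi library labelled WT and at 145 for the one labelled CCL5-/-, which goes against those labels. The titles of these libraries also name the other genotype. Total counts were 9280635 to 22411342 per F4/80low library. Rn45s, the ribosomal RNA precursor, took 58.4% and 50.03% of the counts in replicate 1 of WT and CCL5-/-, but 0.844% and 1.38% in replicate 2, leaving 3857011 to 22222208 counts for other genes. The replicate numbers lay apart on the first principal component, which took 76% of the variance. Csf1r, a defining receptor of macrophages, was present at 126 to 210 CPM (counts scaled to library size) in all 4 count libraries. Another macrophage marker, Mertk, was at 1.95 to 14.8 CPM. Markers of other cells were present too, with the fibroblast gene Col1a2 at 437 to 677 CPM and the neutrophil gene S100a9 at 197 to 1834.5.

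The F4/80hi pair did not behave as further libraries. For genes with 20 to 400 reads, the ratio of FPKM between the library labelled WT and the library labelled CCL5-/- followed the ratio of reads between CCL5-/- replicate 1 and WT replicate 1 of F4/80low, with a median chi-square of 0.335 over 6677 genes. The other 11 assignments to count libraries gave 3.57 to 8.90. Among 78 members with at least 100 reads, the same comparison left a median absolute difference of 0.071 on the log2 scale and a largest of 0.34, for Ndufa1. Against the replicate 2 libraries the median was 0.21 and the largest 1.01, for Atp5k. The FPKM values are therefore given as levels and are counted as no further replicates, so that 4 libraries remain.

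Per transcript length, the members ranged over more than 3 orders of magnitude, and the lowest were Cox6b2 and Cox4i2, isoforms known from other tissues or from hypoxia. FPKM values were listed for 87 members, and the others were the assembly factors Ndufaf5, Ndufaf6 and Ndufaf7. The median member stood at 91.5 FPKM in the labelled WT library of F4/80hi and 90.8 in the labelled CCL5-/- library. The highest mean belonged to Atp5g2, one of the genes for the subunit c ring of ATP synthase, at 483 in the library labelled WT and 598 in that labelled CCL5-/-. Among the next in the order were Cox7c, a small subunit of complex IV, with 483 and 454, Cox6c, another, with 466 and 442, and Atp5l, the g subunit of the ATP synthase membrane part, with 488 and 396. In the library labelled WT, Atp5l stood above Atp5g2, whose FPKM bounds there ran from 172 to 794. The order among these genes, Atp5g2 included, is therefore not fixed by the data.

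The median levels differed by complex, but the FPKM bounds of single members were wide. In the library labelled WT they ran from 34.6 to 146 for Sdhb and from 0 to 584 for Ndufs7, a core subunit of complex I. Those of Sdhb span the medians of complex I core and accessory subunits given below. The order of neighbouring complexes is therefore not fixed by the data. Whether it holds in the replicate 2 libraries, where most members were higher, was not tested. Medians in the labelled WT and CCL5-/- libraries were 210 and 193 FPKM for complex IV, 206 and 206 for complex III, 199 and 158 for complex V, 90.0 and 83.4 for complex I accessory subunits, 66.3 and 61.7 for complex II, and 43 and 37.9 for complex I core subunits. The 4 assembly factors with a value had medians of 4.30 and 5.15, well below the subunits they help to join. Within complex I the highest core subunit was Ndufv2, an iron-sulfur subunit of the NADH-oxidising arm, with 78.8 and 61.9. The highest accessory subunits were Ndufa2, with 260 and 277, and Ndufb9, with 255 and 256. In complex II, Sdhb, the iron-sulfur subunit, stood at 90.3 and 84.9, the membrane anchors Sdhd and Sdhc at 70.2 and 64.7 and at 62.4 and 58.8, and Sdha, the flavoprotein that oxidises succinate, at 45.9 and 43.8. The highest members of complex III were Uqcrh, the hinge protein, with 321 and 308, and Uqcrq, with 325 and 280. Cyc1, the cytochrome c1 of that complex, had 66.3 and 56.7, and Cycs, the mobile cytochrome c, 72.2 and 61.0.

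**Figure D1:**
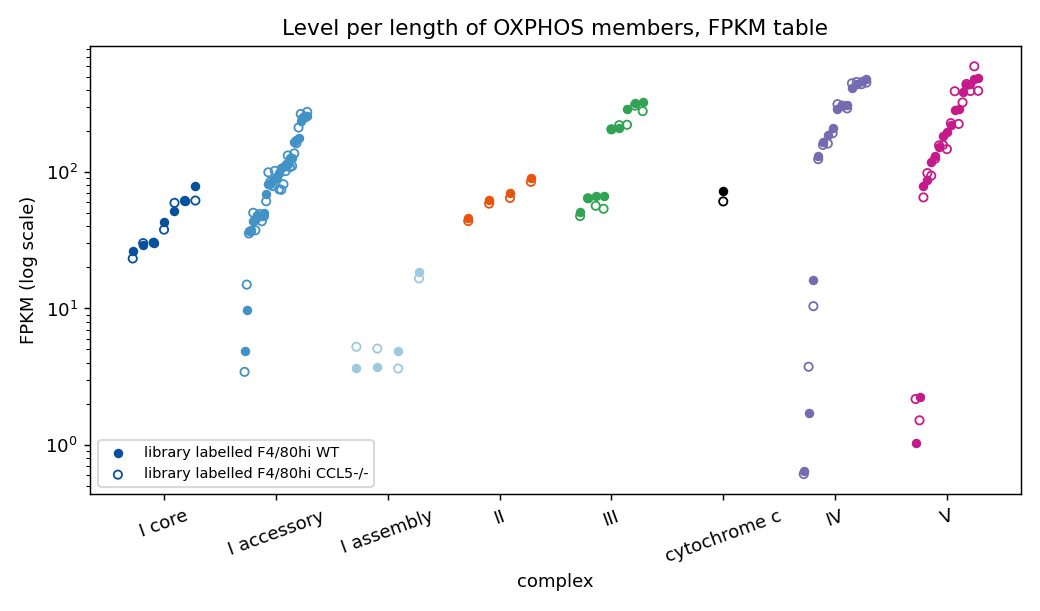
FPKM of each member (log scale) by complex, with filled points for the library labelled F4/80hi WT and open points for that labelled F4/80hi CCL5-/-; Cox6b2, listed at 0 in the first, is not drawn. Complex IV and V members reach the highest values, while assembly factors and tissue isoforms sit near the bottom.

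Where a subunit has several genes, 1 form usually supplied nearly all of the family's FPKM. Cox4i1 held 99.8% and 99.9% of the COX4 signal in the labelled WT and CCL5-/- libraries, and its hypoxia-linked relative Cox4i2 0.155% and 0.136%. Cox6a1 held 99.4% and 98.8% against 0.586% and 1.17% for the muscle form Cox6a2. Cox6b1 held 100% and 99.9% against 0.0% and 0.146% for the testis form Cox6b2. Cox8a held 99.6% and 98.9% against 0.394% and 1.08% for the muscle form Cox8b, and Ndufa4, a protein now placed in complex IV, 98.1% and 98.6% against 1.93% and 1.36% for Ndufa4l2, known as a hypoxia-induced relative. The shares were divided more evenly in 2 families. In COX7A, Cox7a2l, which is known to join complexes III and IV into supercomplexes, held 53.5% and 53.3%, Cox7a2 42.4% and 43.8%, and the muscle form Cox7a1 4.11% and 2.87%. The 3 genes of subunit c encode the same mature protein, and Atp5g2 supplied 60.9% and 64.6%, Atp5g3 28.1% and 24.8%, and Atp5g1 11.0% and 10.6%.

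Most members divided the F4/80low count libraries by replicate number. Levels are counts scaled to library size with TMM factors (CPM). Both replicate 2 libraries lay above both replicate 1 libraries for 76 of 90 members, where 34.2% of all 12710 genes tested did so, and below them for 2. In edgeR's quasi-likelihood test of replicate number, with Benjamini-Hochberg adjustment over all genes tested and a threshold of 0.05, 48 of 90 members were higher in replicate 2, where 13.1% of all genes were. None was lower, where 16.5% of all genes were. The median log2 change was 0.70 over members and 0.01 over all genes. Without WT replicate 1 the test called 26 members higher, where 5.87% of all genes were, and without CCL5-/- replicate 1 it called 23, where 7.06% were. Without Rn45s and with library totals in place of TMM factors, the median of all genes moved to -0.18, that of the members to 0.53, and 33 members were called. That scaling called 9.07% of all genes higher and 22.0% lower.

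**Figure D2:**
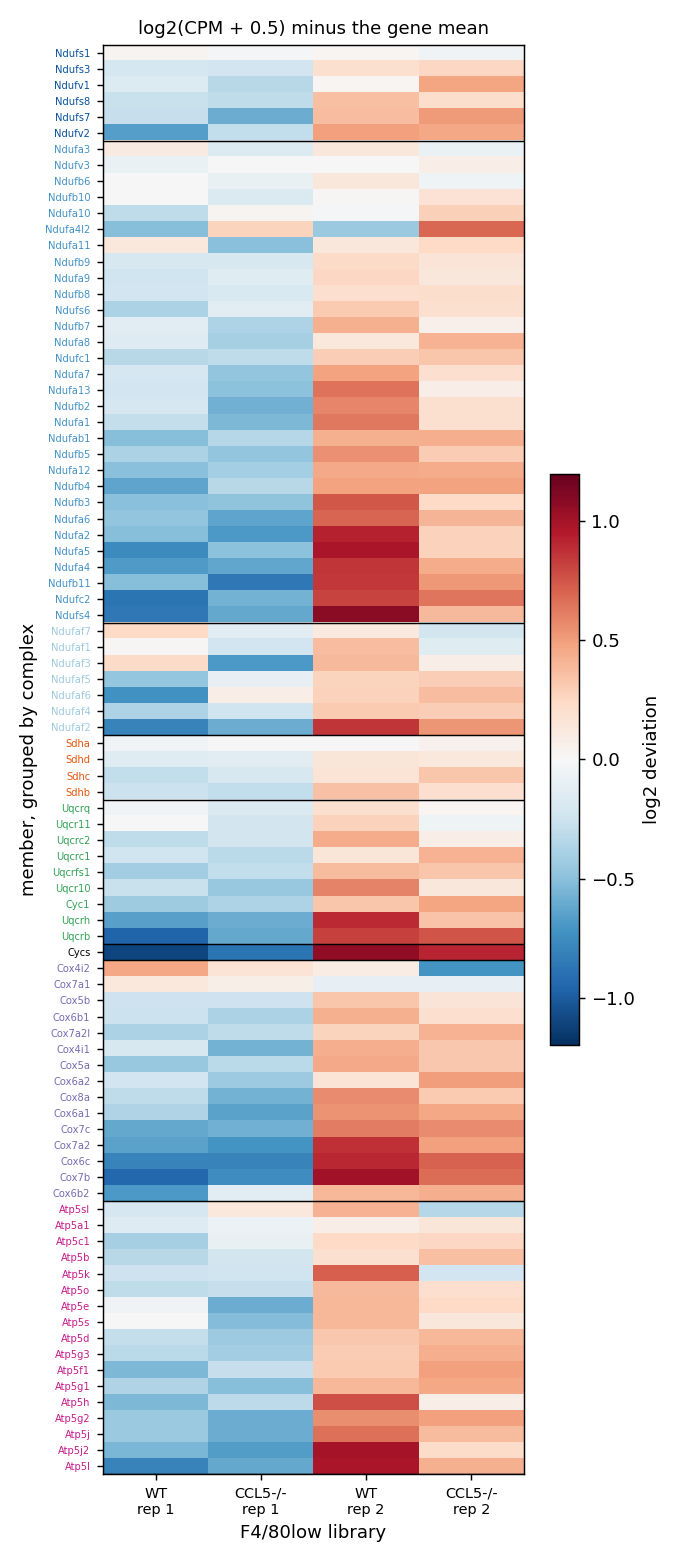
Each row is a member (1 is not drawn) and each column an F4/80low library; colour gives log2(CPM + 0.5) minus the mean of that gene over the 4 libraries, and name colour and lines mark the complexes (complex I core, accessory and assembly, II, III, cytochrome c, IV and V from the top). The replicate 2 columns are red and the replicate 1 columns blue in most rows, with Sdha, Ndufs1, Ndufa3 and Ndufv3 pale throughout.

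Summed over the members, the level was 6337 CPM in WT replicate 1, 6232 in CCL5-/- replicate 1, 11823 in WT replicate 2 and 10575 in CCL5-/- replicate 2. Replicate 2 was thus 1.87-fold higher in WT and 1.70-fold higher in CCL5-/-. As a share of counts outside Rn45s the sums were 0.957%, 1.02%, 1.62% and 1.53% in the same order. In bulk RNA, fewer cells of a type and less RNA per cell cannot be told apart.

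The mobile carrier showed the largest change among called members. Cycs (chr6:50562563-50566538, GRCm38) was at 63.7 CPM in WT replicate 1 and 74.7 in CCL5-/- replicate 1, against 287 and 260 in the replicate 2 libraries. The replicate numbers did not overlap and the genotypes did. The change was 1.98 on the log2 scale (SE 0.22, edgeR adjusted p = 8.96e-05), or 4.51-fold in WT and 3.48-fold in CCL5-/-.

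Complex IV followed, with 10 of 15 members higher in replicate 2 and a median log2 change of 0.86. Its summed level was 1408 and 1303 CPM in the replicate 1 libraries (WT, then CCL5-/-), and 2889 and 2582 in replicate 2, a 2.05-fold and a 1.98-fold difference. Cox7b, a small structural subunit (chrX:106015700-106022450), rose from 85.4 CPM in WT and 98.0 in CCL5-/- replicate 1 to 331 and 262 in replicate 2. Its log2 change was 1.69 (SE 0.23, edgeR adjusted p = 2.98e-04). Cox6c was at 127 and 127 CPM in the replicate 1 libraries and at 415 and 363 in replicate 2, a log2 change of 1.62 (SE 0.22, edgeR adjusted p = 3.13e-04). Neither gene had overlapping replicate numbers. At the lower end of the called genes, Cox6b1 changed by 0.64 and Cox7a2l by 0.69. The ubiquitous isoforms Cox4i1, Cox6a1, Cox7a2 and Cox8a were called, with log2 changes of 0.76, 1.0, 1.38 and 0.88.

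The tissue isoforms of complex IV did not pass the test and rested on few reads. Cox4i2 was at 1.55, 1.16, 1.08 and 0.404 CPM in WT and CCL5-/- replicate 1 and WT and CCL5-/- replicate 2. Cox7a1 was at 3.78, 3.60, 3.16 and 3.16 CPM in the same order. These 2 were the members with both replicate 2 libraries below replicate 1, without a call. Cox6a2 was at 1.55, 1.28, 2.202 and 2.90 CPM, and Cox6b2 at 0.0, 0.232, 0.559 and 0.588.

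In complex V, 10 of 17 members were higher in replicate 2, with a median log2 change of 0.72. The summed level was 2152 and 2213 CPM in the replicate 1 libraries (WT, then CCL5-/-), and 3775 and 3481 in replicate 2. Atp5l (chr9:44912557-44920742) was at 103 and 118 CPM in the replicate 1 libraries (WT, then CCL5-/-) and at 357 and 243 in replicate 2, a log2 change of 1.44 (SE 0.24, edgeR adjusted p = 0.00116). Atp5j2, the f subunit of the membrane part, was at 145 (WT) and 133 CPM (CCL5-/-) in replicate 1, against 423 and 246 in replicate 2, a log2 change of 1.27 (SE 0.27, edgeR adjusted p = 0.00436). In both genes the replicate 2 libraries were high and WT replicate 2 the highest. Atp5o, the stalk subunit OSCP, and Atp5d, the delta subunit of the rotor, had the smallest changes called, 0.59 and 0.72. All 3 subunit c genes were called, Atp5g2 with 1.05, Atp5g1 with 0.87 and Atp5g3 with 0.75. The catalytic subunits Atp5a1 and Atp5b had changes of 0.23 (adjusted p = 0.45) and 0.56 (adjusted p = 0.084) in the edgeR test. Atp5s and Atp5sl carry the name without being subunits of the enzyme, and neither was called.

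In complex III, 5 of 9 members were higher in replicate 2, with a median log2 change of 0.71 and summed levels of 684 and 677 CPM in the replicate 1 libraries (WT, then CCL5-/-) against 1235 and 1088 in replicate 2. Uqcrb, a ubiquinone-binding subunit (chr13:66900617-66905378), was at 53.8 (WT) and 68.3 CPM (CCL5-/-) in replicate 1, against 185 and 177 in replicate 2, a log2 change of 1.57 (SE 0.22, edgeR adjusted p = 3.77e-04). Uqcrh was at 92.1 (WT) and 95.5 CPM (CCL5-/-) in replicate 1, against 270 and 184 in replicate 2, a log2 change of 1.28 (SE 0.24, edgeR adjusted p = 0.00207). Both genes were high in replicate 2 of either genotype. Cyc1 changed by 0.81, Uqcr10 by 0.75 and Uqcrfs1, the Rieske iron-sulfur protein, by 0.71, and all 3 were called. The core proteins Uqcrc1 and Uqcrc2, with 0.57 and 0.54, were not called.

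In complex I, 4 of 7 core subunits, 17 of 30 accessory subunits and 1 of 7 assembly factors were higher in replicate 2, with median log2 changes of 0.58, 0.72 and 0.57. Among accessory subunits, Ndufs4, needed for a late step of assembly (chr13:114287795-114388258), was at 30.6 and 36.4 CPM in the replicate 1 libraries (WT, then CCL5-/-) and at 119 and 73.3 in replicate 2. Its log2 change was 1.52 (SE 0.26, edgeR adjusted p = 0.00128). Ndufc2 was at 40.4 (WT) and 50.1 CPM (CCL5-/-) in replicate 1, against 131 and 116 in replicate 2, a log2 change of 1.45 (SE 0.22, edgeR adjusted p = 5.73e-04). Ndufc1 and Ndufa7 had the smallest changes called, 0.65 and 0.68. Ndufa4 changed by 1.33, while Ndufa4l2, at 2.23, 4.18, 2.37 and 5.77 CPM in WT and CCL5-/- replicate 1 and WT and CCL5-/- replicate 2, did not follow the replicate number.

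Among core subunits of complex I, Ndufv2 was at 55.8 (WT) and 72.2 CPM (CCL5-/-) in replicate 1, against 125 and 122 in replicate 2, a log2 change of 0.95. Other core calls included Ndufs7 with 0.88 and Ndufs8 with 0.58, both iron-sulfur proteins of the peripheral arm. Ndufs1, the largest subunit of that arm, was at 37.8, 36.7, 37.6 and 35.9 CPM in WT and CCL5-/- replicate 1 and WT and CCL5-/- replicate 2. Its levels were nearly the same in the 4 libraries. The called assembly factor was Ndufaf2, with 6.87 and 8.02 CPM in replicate 1 and 22.8 and 18.1 in replicate 2, a log2 change of 1.45.

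In complex II none of the 4 genes was called, and the median log2 change was 0.38. Without the filter on low counts 2 were called higher, in a fit that called 4666 of 18000 genes in either direction. Without Rn45s 1 was called higher, where 3878 of 12937 genes were called in either direction. With the length and GC offsets given below 1 was called higher, where 9.99% of all genes were, and the median of the 4 genes was 0.09. The summed level was 269 and 274 CPM in the replicate 1 libraries (WT, then CCL5-/-) and 347 and 344 in replicate 2, a 1.29-fold and a 1.26-fold difference. Sdha (chr13:74322254-74350280) was at 83.8, 86.5, 86.4 and 89.8 CPM in WT and CCL5-/- replicate 1 and WT and CCL5-/- replicate 2, a log2 change of 0.05 (SE 0.20, edgeR adjusted p = 0.88) that turned to -0.12 with library totals in place of TMM factors. Sdhb, at 87.6 and 85.8 against 135 and 121 CPM, changed by 0.56 with an edgeR adjusted p of 0.056. Sdhc and Sdhd had log2 changes of 0.49 (adjusted p = 0.088) and 0.27 (adjusted p = 0.33) in the same test. Replicate 2 was above replicate 1 without overlap for 3 of the 4 genes, the exception being Sdha. Whether complex II differed from the other complexes was not tested.

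**Figure D3:**
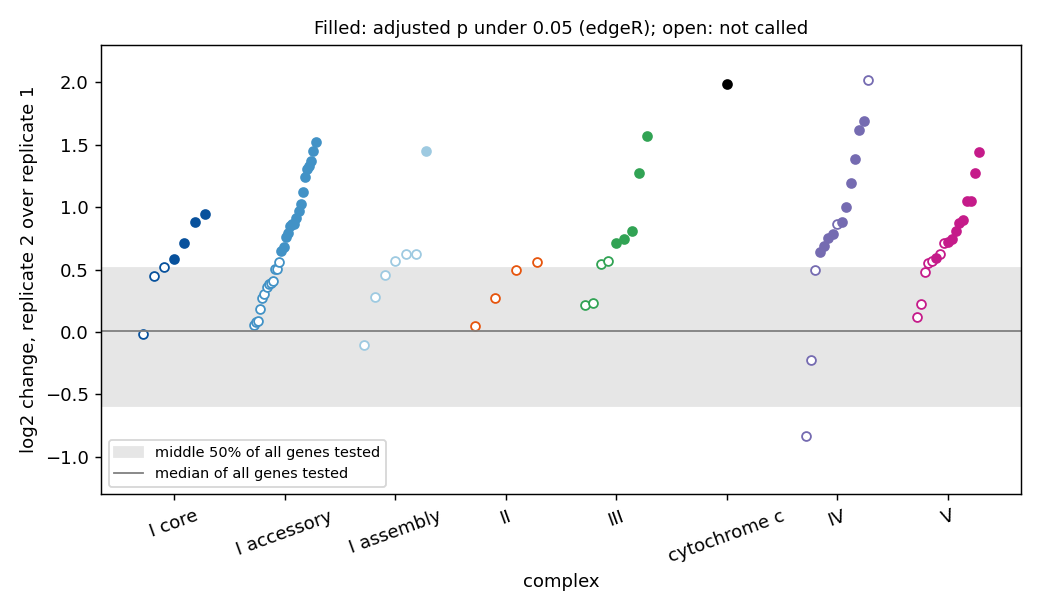
Log2 change from replicate 1 to replicate 2 (edgeR) for each member by complex; filled points have an adjusted p under 0.05, the line is the median of all genes tested and the grey band their middle 50%. Cycs stands highest among the filled points at 1.98, complex II has no filled point, and most members of complexes III, IV and V lie above the grey band.

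Transcript length moved with the same difference. Members with a transcript length had a median of 934 nucleotides, against 2981 over the tested genes with one. Over 11799 genes, the log2 change by replicate number and the transcript length had a Spearman rho of -0.545, a description across genes that share the same 4 libraries. Over 89 members rho was -0.198. Members and all genes of like length changed by similar amounts in some classes. From over 600 to 800 nucleotides the median log2 change was 0.78 for 19 members and 0.71 for 239 genes, and from over 1000 to 1500 it was 0.60 for 18 members and 0.56 for 1140 genes. From over 3000 to 5000 nucleotides it was 0.83 for 6 members and -0.18 for 3623 genes, and up to 600 it was 0.85 for 19 members and 0.46 for 139 genes. The share of all genes called higher in replicate 2 also differed by length. It was 30.2% up to 600 nucleotides, with 11 of 19 members called, and 43.1% from over 600 to 800, with 12 of 19. From over 1000 to 1500 it was 30.9%, with 9 of 18 members, and from over 3000 to 5000 it was 6.35%, with 4 of 6. The class over 3000 to 5000 held Cycs, Atp5g1, Ndufab1, Ndufb2, Ndufaf4 and Sdhc. Each length is that of the longest principal transcript annotated, such as 4715 nucleotides for Atp5g1, 4371 for Ndufb2 and 3479 for Ndufab1. Whether these cells used a shorter form was not tested, which limits the contrast in this class and the offsets below.

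**Figure D4:**
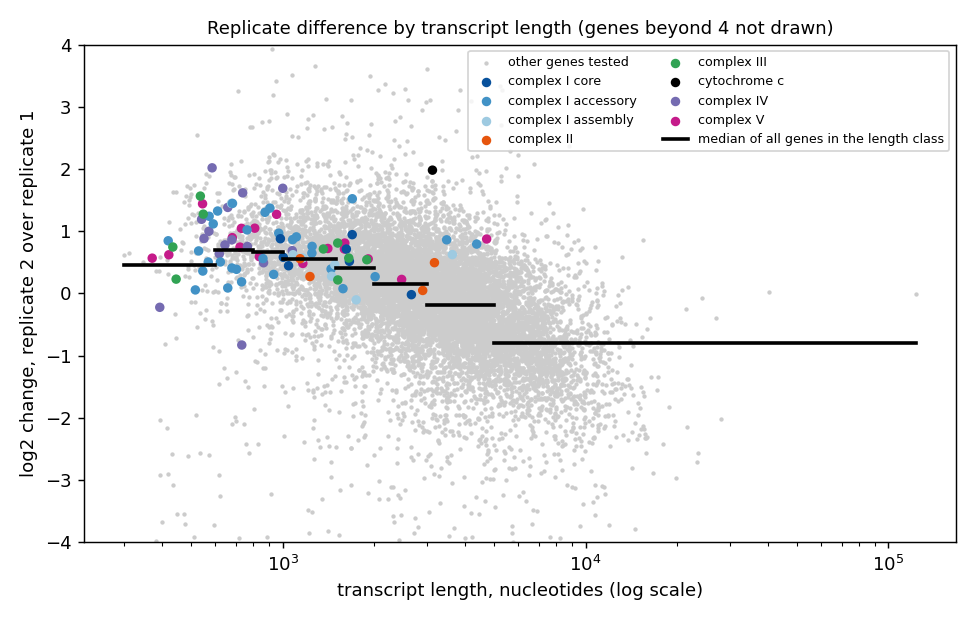
Log2 change from replicate 1 to replicate 2 against transcript length (log scale); grey points are other genes tested, coloured points are members and black bars are medians of all genes in each length class. The bars fall from 0.71 in the class over 600 to 800 nucleotides to -0.79 in the class over 5000, and most members lie at the short end.

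With offsets for length and GC content in the edgeR fit, an alternative added after the data were seen, 32 of 89 members were higher in replicate 2 and none lower, where 9.99% of 11799 genes were higher and 7.68% lower. The median log2 change of the members was then 0.35. Of the 48 members first called, 29 were called again. By complex, the calls with offsets were 7 in complex IV, 8 in complex V, 3 in complex III and 11 among accessory subunits of complex I. There were none among core subunits, and 1 each for assembly factors (Ndufaf2), complex II (Sdhc) and cytochrome c. These calls include Atp5e, Atp5k and Sdhc, which were not called before. Cycs had 1.75, Atp5l 1.43, Uqcrb 1.35 and Cox6c 1.29 in that fit, and Sdhc 0.65 (edgeR adjusted p = 0.034). The core subunits had a median of 0.07, and none of the 4 called before was called. Of the 89 members, 13 turned from higher to lower in replicate 2 and 1 from lower to higher, among them Ndufc1, a called gene before, at -0.03, and Sdhd at -0.21. Some lost calls moved little and others far. Cox6b1 went from 0.64 to 0.57 (edgeR adjusted p = 0.054) and Atp5g3 from 0.75 to 0.54 (adjusted p = 0.091), and both were called when genotype was also a term (adjusted p = 0.020 and 0.036). Cox4i1 went from 0.76 to 0.31, Cyc1 from 0.81 to 0.30, Uqcrfs1 from 0.71 to 0.23, Cox7a2l from 0.69 to 0.23, Atp5o from 0.59 to 0.21 and Atp5d from 0.72 to 0.09, without a call.

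Other measures moved with the replicate number as well, in the test that called 13.1% of all genes higher in replicate 2 and 16.5% lower. Of 50 tested replication-dependent histone genes, whose transcripts lack a poly(A) tail, 46 were lower in replicate 2, with summed levels of 1128 and 678 CPM in the replicate 1 libraries (WT, then CCL5-/-) and 127 and 117 in replicate 2. Of 8 macrophage and myeloid markers, 3 were lower (Itgam, Ptprc and Mertk) and none higher, with a median log2 change of -0.55. Their summed level ranged from 3377 to 4408 CPM in replicate 1 and 3529 to 6028 in replicate 2. Lyz2 made up most of that sum, at 2115 and 3159 CPM in replicate 1 (WT, then CCL5-/-) and 5351 and 3033 in replicate 2. Of 6 neutrophil markers none was called, at 3344 and 615 CPM summed in replicate 1 and 517 and 302 in replicate 2. Of 3 muscle markers, 2 were lower (Acta1 and Myh4), at 27.3 and 9.88 CPM summed in replicate 1 and 3.39 and 1.40 in replicate 2, and the muscle isoforms above were themselves at a few CPM. Their part in the difference, like that of Rn45s, was not tested. No gene was called of 6 T and NK cell, 1 B cell, 3 epithelial, 4 fibroblast, 1 hepatocyte and 1 red cell markers tested, and 1 of 3 endothelial markers was lower (Cdh5). The red cell genes Hba-a1 and Hbb-bs had 0 reads in the 4 count columns, while the FPKM table listed Hba-a1 at 33.5 and 103 in the libraries labelled WT and CCL5-/-, so the count table gives no measure of red cell RNA from these genes.

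Other genes of the mitochondrion were called too, in the test that called 13.1% of all genes higher in replicate 2 and 16.5% lower. Of 77 mitochondrial ribosomal protein genes, 27 were higher in replicate 2 and none lower, with a median log2 change of 0.51. Outside the mitochondrion, cytosolic ribosomal protein genes, whose median length of 882.5 nucleotides was close to that of the members, had 44 of 81 higher and none lower, with a median of 0.76. Of 16 genes of the TCA cycle, which supplies the chain with electrons, and of pyruvate dehydrogenase, which feeds it, the pyruvate dehydrogenase subunit Pdhb and the cycle enzymes Mdh2 and Sucla2 were higher, with 1.004, 0.67 and 0.65, Ogdh was lower with -0.78, and the median was 0.21. Of 9 carriers and outer membrane genes, Vdac3, Tomm22 and Tomm20 were higher and none lower, with a median of 0.50.

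Assembly factors and regulators form short lists, in a test that called 13.1% of all genes higher and 16.5% lower. Such lists are too short to set their calls apart from those shares. None of 6 factors for complex III was called. For complex IV, 2 of 17 were higher, Cox20 with 1.48 and Coa6 with 1.33, and Cox15, which makes heme a, was lower with -0.87. For complex II 1 of 4 was higher (Sdhaf4, 1.22), and for complex V 1 of 3 (Tmem70, 0.81). Of 12 regulators of mitochondrial genes, Tfam, which packages and transcribes mitochondrial DNA, was higher with 0.85, and the median of the list was 0.08.

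Start regions of the members were read for short motifs of factors known from the promoters of such genes. RefSeq start windows (GRCm38.p6, 250 bases before to 50 after the start) were found for 71 of 90 members, in 76 windows. The NRF1 core (GCGCA, any base, then GCGC), on either strand, was in 25% of these windows, in 9.64% of the windows of tested genes and in 4.6% of all windows. The ETS core CCGGAAG was in 22.4%, against 16.9% and 8.86%, the YY1 core AAGATGG in 13.2%, against 7.15% and 6.34%, and the GC box GGGCGG in 43.4%, against 61.1% and 35.7%. None of these 4 strings contains another. Members with the NRF1 core had a median log2 change by replicate number of 0.58, and those without it 0.75. With and without the motif, the medians were 0.582 and 0.746 for the ETS core. They were 0.764 and 0.715 for the YY1 core, and 0.722 and 0.715 for the GC box. A match is a description of letters and not a bound site.

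The 250 bases before the start are shown for 4 members that hold such motifs and differ in how they followed the replicate number, with NRF1 and ETS cores in capitals. Sdha, at 0.05, and Cox6a1, at 1.0, both hold NRF1 cores, and Cox6a1 also holds an ETS core. Uqcrh, at 1.28, and Atp5l, at 1.44, hold an ETS core and no NRF1 core. Whether a motif goes with the change was not tested.
Sdha, chr13:74350241-74350490, minus strand: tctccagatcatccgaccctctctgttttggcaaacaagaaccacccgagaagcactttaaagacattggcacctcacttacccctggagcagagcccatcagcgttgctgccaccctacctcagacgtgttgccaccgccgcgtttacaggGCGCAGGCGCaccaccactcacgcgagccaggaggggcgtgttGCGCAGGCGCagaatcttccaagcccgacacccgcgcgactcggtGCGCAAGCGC
Cox6a1, chr5:115348959-115349208, minus strand: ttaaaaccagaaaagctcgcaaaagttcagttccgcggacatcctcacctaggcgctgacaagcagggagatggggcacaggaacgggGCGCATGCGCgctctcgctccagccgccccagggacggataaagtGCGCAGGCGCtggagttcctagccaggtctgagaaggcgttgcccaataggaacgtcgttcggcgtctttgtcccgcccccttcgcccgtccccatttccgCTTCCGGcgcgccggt
Uqcrh, chr4:116075071-116075320, minus strand: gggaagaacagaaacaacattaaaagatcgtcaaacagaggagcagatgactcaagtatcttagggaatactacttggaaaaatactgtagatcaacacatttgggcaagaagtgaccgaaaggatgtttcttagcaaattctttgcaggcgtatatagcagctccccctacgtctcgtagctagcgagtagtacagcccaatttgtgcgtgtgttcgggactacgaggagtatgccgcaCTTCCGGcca
Atp5l, chr9:44920743-44920992, minus strand: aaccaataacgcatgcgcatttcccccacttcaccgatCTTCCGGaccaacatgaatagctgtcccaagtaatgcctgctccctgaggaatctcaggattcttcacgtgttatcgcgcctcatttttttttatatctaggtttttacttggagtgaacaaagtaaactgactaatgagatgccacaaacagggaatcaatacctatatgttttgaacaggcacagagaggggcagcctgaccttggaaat

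Between the genotypes no member passed the test. In edgeR's quasi-likelihood test of CCL5-/- against WT, 0 of 90 members were called, as were 0.0% of 12710 genes, and no member had an unadjusted p under 0.05, against 0.323% of all genes. DESeq2 called 1 gene and limma-voom 0, neither of them a member. Ccl5 itself had a log2 change of -4.64 (SE 0.69) and an edgeR adjusted p of 0.99997, so the targeted gene did not pass either. With only 2 libraries per genotype an exact permutation test of a single value cannot go below a two-sided p of 0.33. The median log2 change was -0.10 for members and -0.01 for all genes. It ran from -0.44 without CCL5-/- replicate 2 to 0.37 without WT replicate 2. Each such fit keeps a single library of 1 genotype, so the members' change by replicate number enters the genotype difference. The range therefore cannot show how steady the genotype direction is. With every library kept and the replicate number as a term, the median was -0.08, and 0.06 when length and GC offsets were added. In the authors' deposited table no member had an adjusted p under 0.05, and the log2 changes of members lay between -0.28 and 0.42.

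Few members separated the genotypes. Both CCL5-/- libraries were below both WT libraries for 7 of 90 members, where 8.24% of all genes were, and above them for 4, where 8.36% were. Among those with a mean log2 CPM of at least 3, the lower ones were Uqcr11, Ndufa3, Ndufb6 and Ndufs1, and the higher ones Ndufa10, Ndufv3 and Sdha. Ndufa10, an accessory subunit of the membrane arm, was at 42.6 and 52.3 CPM in WT replicates 1 and 2 and at 54.2 and 64.6 in CCL5-/-, a log2 difference of 0.32 (SE 0.36, edgeR adjusted p = 0.99997). Ndufa3 was at 48.1 and 48.98 CPM in WT and at 39.5 and 42.0 in CCL5-/-, a log2 difference of -0.25 (SE 0.34, edgeR adjusted p = 0.99997). Uqcr11, a small subunit of complex III, was at 73.0 and 88.3 CPM in WT and at 62.4 and 70.4 in CCL5-/-, a log2 difference of -0.28 (SE 0.36). The groups did not overlap in these 3 genes, and in this fit each difference was smaller than its standard error. With the replicate number as a term, the differences of Ndufa10, Ndufa3 and Uqcr11 were 0.33 (SE 0.21), -0.25 (SE 0.21) and -0.28 (SE 0.22). Each was then larger than its standard error, and none was called. With length and GC offsets, the differences of Uqcr11, Ndufa3 and Ndufb6 turned to 0.03, 0.06 and 0.07 and the median of the members to 0.07. With library totals in place of TMM factors, that of Ndufs1 turned from -0.05 to 0.05.

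Ndufa4l2 had the smallest unadjusted p of the members. It was at 2.23 and 2.37 CPM in WT replicates 1 and 2 and at 4.18 and 5.77 in CCL5-/-, a log2 difference of 1.11 (SE 0.48, edgeR unadjusted p = 0.063, adjusted p = 0.99997). The CCL5-/- libraries were both higher. With the replicate number as a term its unadjusted p was 0.015 and its adjusted p 0.65 in edgeR, and it was the 1 member with an unadjusted p under 0.05, where 5.86% of all genes had one. No member was called in that fit, where 0.0787% of all genes were.

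The same-numbered libraries gave different genotype patterns. Between the replicate 1 libraries the median log2 difference, CCL5-/- minus WT, was -0.002 over members, and between the replicate 2 libraries it was -0.13. Of 90 members, 18 were higher in CCL5-/- in both pairs, 32 lower in both, 27 higher in the first and lower in the second, and 13 the reverse. Over all 12710 genes tested these counts were 3155, 3370, 3277 and 2895, in the same order. Differences of at least 0.5 downward were seen for 4 members in replicate 1, against 12.6% of all genes, and for 13 in replicate 2, against 15.0%. Atp5k, the e subunit of ATP synthase, was at 46.7 and 47.2 CPM in the replicate 1 libraries (WT, then CCL5-/-) and at 91.8 and 47.4 in replicate 2. Ndufs4 and Ndufa5 had 0.25 and 0.28 in replicate 1 but -0.70 and -0.70 in replicate 2. In each of these 3 genes WT replicate 2 stands above the other libraries.

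**Figure D5:**
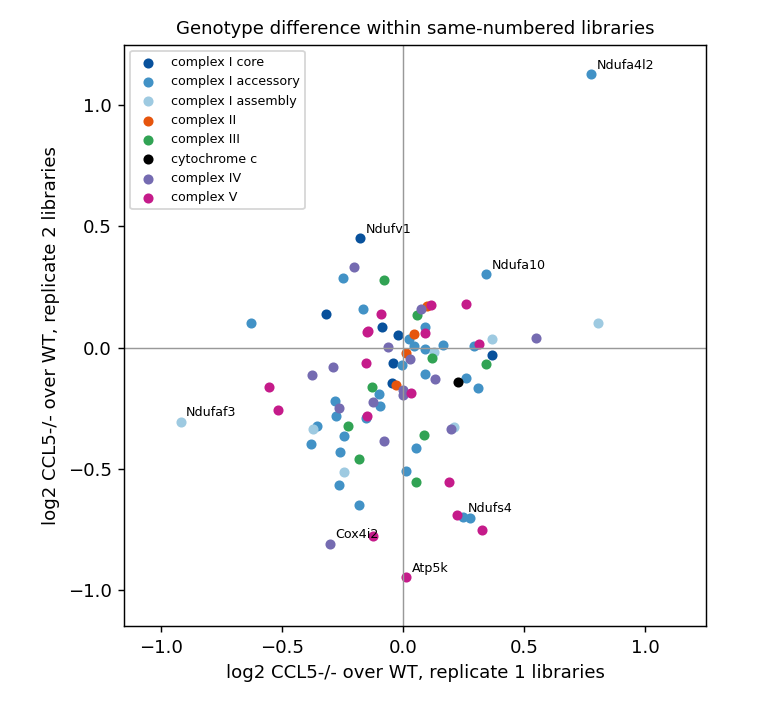
Each point is a member, with its log2 difference of CCL5-/- minus WT in the replicate 1 libraries (x) and the replicate 2 libraries (y); colours mark the complexes. The points scatter around 0 in x, lie mostly below 0 in y, and Ndufa4l2 stands alone at the upper right with 0.78 and 1.13.

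By complex, the summed level in CCL5-/- relative to WT was closest to even in complex II, with log2 differences of 0.02 in replicate 1 and -0.01 in replicate 2. In complex IV these were -0.11 and -0.16, in complex V 0.04 and -0.12, in complex III -0.01 and -0.18, in complex I accessory subunits -0.07 and -0.28, and in complex I core subunits -0.02 and 0.07. For Cycs they were 0.23 and -0.14. No sum moved the same way by more than 0.2 in both pairs. The GC content of the transcript moved with the genotype difference, and in opposite directions in the pairs. Over all genes Spearman's rho was -0.235 in replicate 1 and 0.254 in replicate 2, and over 89 members -0.396 and 0.186, as descriptions across genes.

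Markers of other cells also differed between single libraries. The hepatocyte genes Alb, Apoa1 and Ttr summed to 99.8 CPM in CCL5-/- replicate 1 and to at most 0.657 in the other 3 libraries, with Alb and Ttr at 0 reads in WT replicate 1 and CCL5-/- replicate 2. The neutrophil markers summed to 3344 and 517 CPM in WT replicates 1 and 2 and to 615 and 302 in CCL5-/-. Of these 6 markers, 6 were lower in CCL5-/- in both pairs, where 3370 of 12710 genes were. With the replicate number as a term, the neutrophil gene Camp (-3.72) and the fibroblast gene Dcn (-1.49) were called lower in CCL5-/- by edgeR (adjusted p = 0.028 and 0.024), while no marker was called without it. The 6 T and NK cell markers were all higher in CCL5-/- in replicate 1 and lower in replicate 2, where 3277 of 12710 genes were. Their median log2 differences were 0.38 and -0.87, and the 8 macrophage markers had medians of 0.06 and -0.62. The 3 muscle markers were lower in both pairs. Their part in the members' values was not tested.

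In the F4/80hi pair no member reached a 2-fold difference, on the scale log2((FPKM + 1)/(FPKM + 1)), among 85 members with at least 1 FPKM in either library. Of all 11670 such genes 3.92% did. The members ran from -0.59 for Cox7a1 to 0.80 for Cox6a2, labelled CCL5-/- minus labelled WT, with 16.1 and 10.4 FPKM for the first and 1.71 and 3.73 for the second in the libraries labelled WT and CCL5-/-. Both extremes are muscle isoforms at low levels. The median difference was -0.08, and with 1 library per label there is no replicate check. Ndufs5, an accessory subunit of complex I, was listed at 89.5 and 58.4 FPKM here while the count table gave it 0 reads in all 4 libraries, so the tables differ for that gene.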

How the data were processed

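RNA extracted with Trizol was sequenced from TruSeq libraries, per the labels' protocols. The F4/80low table deposited by the authors held read counts per gene. A second deposited table held the authors' normalised signal per library, their log2 fold changes, standard errors, a score (the test statistic) and p-values. The F4/80hi table deposited by the authors held FPKM with lower and upper bounds, and its depth is unknown. Tools named in the submitters' processing notes include STAR, HTSeq and DESeq2, and TopHat2 2.1.1 with Cufflinks 2.2.1. Their role in each table, and the build, are not stated in the sources used here. Strand use is not given, so overlapping or antisense genes, and copies such as processed pseudogenes, cannot be told apart.

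Counts were tested on the whole table in R 4.3.3 with edgeR 4.0.16 (TMM, filterByExpr, robust quasi-likelihood fit, two-sided, Benjamini-Hochberg), separately for genotype and replicate number, and with DESeq2 1.42.0 and limma 3.58.1 (voom) as alternatives. The fits were also run on simulated counts, which held no replicate difference in the genotype comparison. That run does not show what the genotype test can find in libraries split by replicate number. A standard error is the log2 change divided by the square root of F. Transcript length and GC content come from GENCODE M21 (longest principal protein-coding transcript). Differences within pairs used log2(CPM + 0.5), and FPKM a pseudocount of 1. Genes named were the paired isoforms, complex II, Cyc1, Cycs, and, per complex, the 2 most abundant, the 2 highest and the 2 lowest called changes, and for genotype up to 5 per direction by smallest p without overlap at a mean log2 CPM of at least 3. Atp5a1, Atp5b, Uqcrc1, Uqcrc2, Atp5k, Ndufs4, Ndufa5 and Ndufa4l2 in the genotype comparison were named after their values were seen. The members and lists were chosen with earlier results of these data known. One further item that the naming rule took is not reported here.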

Additional observations from a re-analysis of the deposited data

How the results depend on the processing

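The number of genes called between genotypes was 0 to 4 and the members' median log2 change -0.435 to 0.369 when each library was left out in turn. The labels do not say that a replicate number marks a shared day or litter. Across 12710 genes the replicate differences of WT and CCL5-/- had a Pearson r of 0.752, and the replicate block raised the genes called between genotypes from 0 to 10, with no member among them. DESeq2 called 1 gene. With length and GC offsets and the replicate block together, 55 genes and no member were called, with a member median of 0.0605, and with offsets alone the median was 0.0652. With library totals outside Rn45s the genotype median was 0.000948. The genotype difference turned direction for Uqcr11 (0.0259, and 0.0352 with the block), Ndufa3 (0.0637 and 0.0605) and Ndufb6 (0.0652 and 0.0734) with offsets, and for Ndufs1 (0.0499) with library totals.

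For replicate number, leaving out each library gave 2067 to 3215 genes, 23 to 50 members called higher and a member median of 0.668 to 0.76. Offsets gave 2085 genes and a median of 0.347, also 0.347 with genotype as a term. The median was 0.786 without a filter, 0.717 without Rn45s and 0.526 with library totals. The summed level changed by 0.671 as a share of reads outside Rn45s, and by 0.831 in CPM. Of the members chosen to be named, offsets, without and with genotype as a term, turned the direction for Cox7a1 (0.227 and 0.23), Ndufa4l2 (-0.314 and -0.31), Ndufc1 (-0.0343 and -0.0376), Sdhd (-0.211 and -0.212) and Uqcrq (-0.189 and -0.188). Library totals turned Sdha (-0.115). Ndufs1, near 0, turned without a filter (0.0667), without Rn45s (0.00957) and when libraries were left out (-0.0506 to 0.0238), as did Ndufa4l2 (-0.46 to 0.906). In the F4/80hi pair a pseudocount of 0.1 put 2 members past 2-fold. The cause of these changes was not tested. The replicate 1 libraries held the fewest counts outside Rn45s, which limits members at a few CPM.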
